A study of Mus musculus with 2 samples.

Results

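The genes described here are the mouse histone genes, taken as all array probes whose accession maps to a gene symbol of the histone families H1, H2A, H2B, H3 and H4 (symbols that begin with Hist1h to Hist4h, H1f, H2af, H2ac, H2bc, H2az, H3f, H3c, H4c or H4f). The rule used names only and no measured value. It found 53 genes with 63 probes, of 20653 named genes and 39417 probes with values on both arrays. The annotation holds 81 genes with such a symbol. Of these, 7 are pseudogenes and 74 code for protein, and 21 of the latter (19 replication-dependent genes, the variant H3f3c and the testis gene H3f4) had no probe named here. Current symbols no longer begin this way for some variants, among them H2ax, H2aj and the macroH2A genes, and these are given in the closing section.

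Core histones H2A, H2B, H3 and H4 form the protein spool around which DNA winds, and H1 linker histones bind where DNA enters and leaves it. Replication-dependent histone genes lie in clusters, are transcribed mainly in S phase and give mRNAs that end in a stem-loop in place of a poly(A) tail. Variant histones such as H2A.Z (H2az1, H2az2), H3.3 (H3f3a, H3f3b) and H1.0 (H1f0) are made throughout the cell cycle from ordinary polyadenylated mRNAs and replace the replication-dependent forms in chromatin. The probes were hybridized to cRNA of the Quick Amp method, which starts from an oligo-dT primer. How far the signal of a replication-dependent gene follows its whole mRNA pool was not tested.

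MIN6 cells are a mouse insulinoma line from transgenic C57Bl/6 mice, used here at passages 15 to 20. The FTO-labelled array held total RNA of cells given the lentivirus PLVX-IRES-ZsGreen-mFTO, which carries mouse FTO, a demethylase of RNA and DNA, and the control array held RNA of cells given the PLVX-IRES-ZsGreen virus without insert. Cells of both conditions therefore carried ZsGreen and had been exposed to lentivirus and polybrene, and the fluorescence had been looked at 48 h after transduction. The labels name no promoter for the insert, no sorting of green cells and no separate cultures. There was 1 array per condition, on the same slide and in the same scan, so the spread between cultures is unknown and the differences below carry no test.

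The Fto probe gave a signal of 7301 on the FTO-labelled array and 5179 on the control array, a difference of 0.06 ± 0.20 (spot error) in normalized log2 signal, and both arrays are therefore named by label only. Whether this probe matches the part of the gene that the vector carried is not known. All 18 beta cell markers measured passed the background limit on each array. Of the 18 markers of other cell types with a probe, 17 were detected above background on 1 array or both, with a summed signal of 276884 on the FTO-labelled array and 258703 on the control array. Glucagon (Gcg) gave most of that sum, with 257411 and 243558, whereas Cdh5 of endothelium (7.16 and 12.6) was near the lowest signals. The part of these markers in the histone differences was not tested. In bulk RNA of this kind, fewer cells of a type and less RNA per cell cannot be told apart. Spots of repeated probes had lost signal in 6 of 35 blocks of the surface of the FTO-labelled array and in 2 blocks of the control array, and 34.4% of the tested histone probes lay in such a block against 23.3% of all tested probes printed once.

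Differences below are FTO minus control in normalized log2 signal. The spot error joins the errors that the scanner software estimated for the spots on both arrays, near 0.20 for most histone probes, and it holds no variation between cultures. It was used unchanged for every way of processing, also for normexp background correction, which adds an offset of 50 to each signal. A gene is called higher or lower beyond the spot error where its difference exceeds 1 such error. Where a gene had several probes, the brightest stood for it. Signals are given before normalization, and a signal compares the arrays at 1 probe, not the amounts of different transcripts. Probes of histone genes with near-identical coding sequence can bind the RNA of one another, so members of a family are not independent measurements.

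Promoters of 4 genes show how differently members of the families begin. The sequences run 5′ to 3′ on the strand of the gene, from 250 bases before to 50 bases after the start in RefSeq (GRCm38.p6). Capitals mark the TATA box TATAAA, the CCAAT box CCAAT and the octamer ATTTGCAT, each searched on both strands with the letters exactly as written. H2ac11 (chr13:22042900-22043199, minus strand) is a bright H2A gene of the large cluster with 5 CCAAT boxes.
H2ac11: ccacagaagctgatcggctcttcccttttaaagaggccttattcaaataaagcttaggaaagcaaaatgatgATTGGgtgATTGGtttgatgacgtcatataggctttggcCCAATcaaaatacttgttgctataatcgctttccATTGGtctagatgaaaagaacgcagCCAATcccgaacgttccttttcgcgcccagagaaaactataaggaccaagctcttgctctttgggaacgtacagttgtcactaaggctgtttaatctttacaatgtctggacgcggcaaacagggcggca
H2ac20 (chr3:96220831-96221130, minus strand) is a bright H2A gene of the smaller cluster and holds 1 TATA box, 3 CCAAT boxes and 1 octamer.
H2ac20: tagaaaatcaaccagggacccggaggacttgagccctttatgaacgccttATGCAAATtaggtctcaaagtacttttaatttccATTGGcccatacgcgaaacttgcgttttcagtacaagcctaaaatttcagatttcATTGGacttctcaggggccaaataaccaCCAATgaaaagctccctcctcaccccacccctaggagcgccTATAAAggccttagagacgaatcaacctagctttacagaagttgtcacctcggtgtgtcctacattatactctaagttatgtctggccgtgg
H4c8 (chr13:23530794-23531093, plus strand) is the histone gene with the largest difference, and its window holds none of the 3 motifs.
H4c8: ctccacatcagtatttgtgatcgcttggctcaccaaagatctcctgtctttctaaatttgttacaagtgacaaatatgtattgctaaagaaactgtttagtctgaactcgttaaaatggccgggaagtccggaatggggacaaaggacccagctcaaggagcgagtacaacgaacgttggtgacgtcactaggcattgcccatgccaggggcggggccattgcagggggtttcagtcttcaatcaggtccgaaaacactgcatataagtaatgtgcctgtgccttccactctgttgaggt
H3f3b (chr11:116024455-116024754, minus strand), which codes for the variant H3.3, is shown as a variant gene whose normalized signal hardly differed. It holds 1 TATA box, 4 CCAAT boxes and 1 octamer.
H3f3b: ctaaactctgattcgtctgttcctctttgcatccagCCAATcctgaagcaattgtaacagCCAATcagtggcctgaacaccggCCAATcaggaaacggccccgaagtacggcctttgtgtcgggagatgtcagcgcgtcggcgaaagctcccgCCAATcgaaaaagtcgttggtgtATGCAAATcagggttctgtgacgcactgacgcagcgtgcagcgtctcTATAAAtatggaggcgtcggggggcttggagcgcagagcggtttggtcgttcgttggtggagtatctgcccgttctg

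A promoter was listed for 48 of the 53 genes (49 promoters). Among 38 promoters of replication-dependent genes, 60.5% held the TATA box, 84.2% the CCAAT box and 26.3% the octamer, against 13.6%, 37.4% and 1.74% of all 32851 promoters of the same length. The octamer, a binding motif of the POU factor Oct-1, was found in 5 of 12 H2A and 5 of 8 H2B promoters and in none of the 5 H1, 5 H3 and 8 H4 promoters. The CCAAT box was in every H1, H2A, H2B and H3 promoter of the class but in 2 of 8 H4 promoters. Of the 6 variant promoters, 1 held the TATA box, 4 the CCAAT box and 1 the octamer. These are matches of letters and not tested sites. Windows of an H2A and an H2B gene that start close together in opposite directions can overlap. A match there can count for both genes, so the H2A and H2B counts are not independent.

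Nearly all histone probes were detected. Of the 63 probes, 60 passed on both arrays the limit that the scanner software sets for a signal well above background. Of all 39417 probes with values on both arrays, 31939 passed it on both. The second H4c14 probe passed it on the control array only (13.5 there), and the H2ac21 probe and the second H4f16 probe on neither array. Replication-dependent genes gave both dim and bright signals, and most variant genes were bright. The 41 replication-dependent genes tested ran from 42.7 to 113633 on the FTO-labelled array and from 58.8 to 119844 on the control array, with 20 genes under 1000 and 9 over 50000 on both arrays. The 6 variant genes ran from 711 to 227137 and from 592 to 221449, with 1 under 1000 and 4 over 50000. Among all 18513 named genes tested, 44.7% were under 1000 and 802 genes were over 50000 on both arrays.

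**Figure D1:**
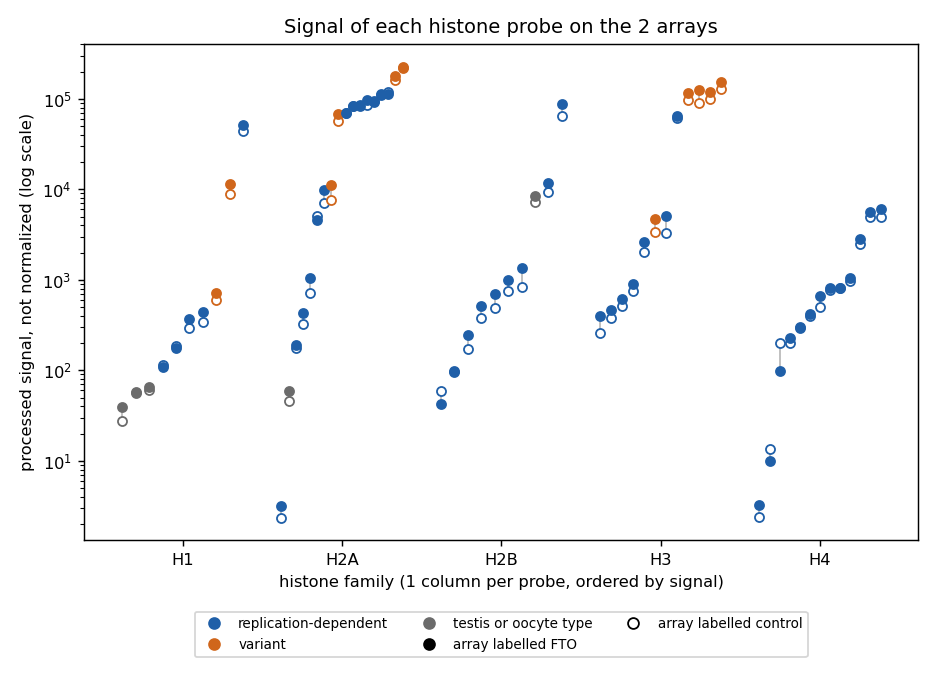
Processed signal of each histone probe before normalization (log axis) on the FTO-labelled array (filled) and the control array (open), 1 column per probe, grouped by family and colored by class. Most of the variant probes lie above 50000, while replication-dependent probes of H2A, H2B and H3 run from under 1000 to above 50000, the brightest of H1 is at 51269.7 and 44063, and the brightest H4 probe is at 6100.

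Histone genes lay more often below 0 than above it. Of 52 genes tested, 16 were above and 36 below 0, where 48.3% of all named genes tested were below 0. Beyond the spot error, 5 were higher and 17 lower, where 14.7% of all named genes tested were higher and 13.9% lower. Of the 41 replication-dependent genes, 28 were below 0, 4 were higher and 16 lower beyond the spot error, and the median was -0.13 (quartiles -0.29 and 0.04). Of the 6 variant genes, 5 were below 0 and none passed the spot error, with a median of -0.06 and a range of -0.14 to 0.01. With quantile normalization, 75th percentile scaling or cyclic loess, 2 to 4 replication-dependent genes were higher and 16 to 22 lower, and with normexp background correction 4 were higher and 13 lower. Without normalization, where the median named gene was 0.37 higher on the FTO-labelled array, 21 were higher and 2 lower. The shares of all named genes were counted after quantile normalization only, so the other counts have none beside them. With 75th percentile scaling the median of all named genes was -0.06. H2az1 was lower beyond the spot error with 75th percentile scaling and with cyclic loess. After quantile normalization the median of all named genes was 0.01. The medians of both classes lay 0.06 apart, a difference that was not tested. H4c8 was the only histone gene past 2-fold, where 2.68% of all named genes passed in either direction and 1.6% were 2-fold lower. Counted by probe, 1 of 61 tested histone probes passed, against 3.48% of all tested probes.

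The same held outside the blocks that had lost signal. There, 24 replication-dependent genes had a median of -0.13, with 1 higher and 10 lower beyond the spot error against 13.4% and 12.8% of the named genes there. By position, with the blocks included, the 33 genes of the large cluster on chromosome 13 had a median of -0.13. Beyond the spot error, 3 were higher and 12 lower, where 14.7% of all named genes tested were higher and 13.9% lower. The 7 genes tested on chromosome 3 also had a median of -0.13, with 1 higher and 3 lower against the same shares. The only gene on chromosome 6, H4f16, had -0.35.

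**Figure D2:**
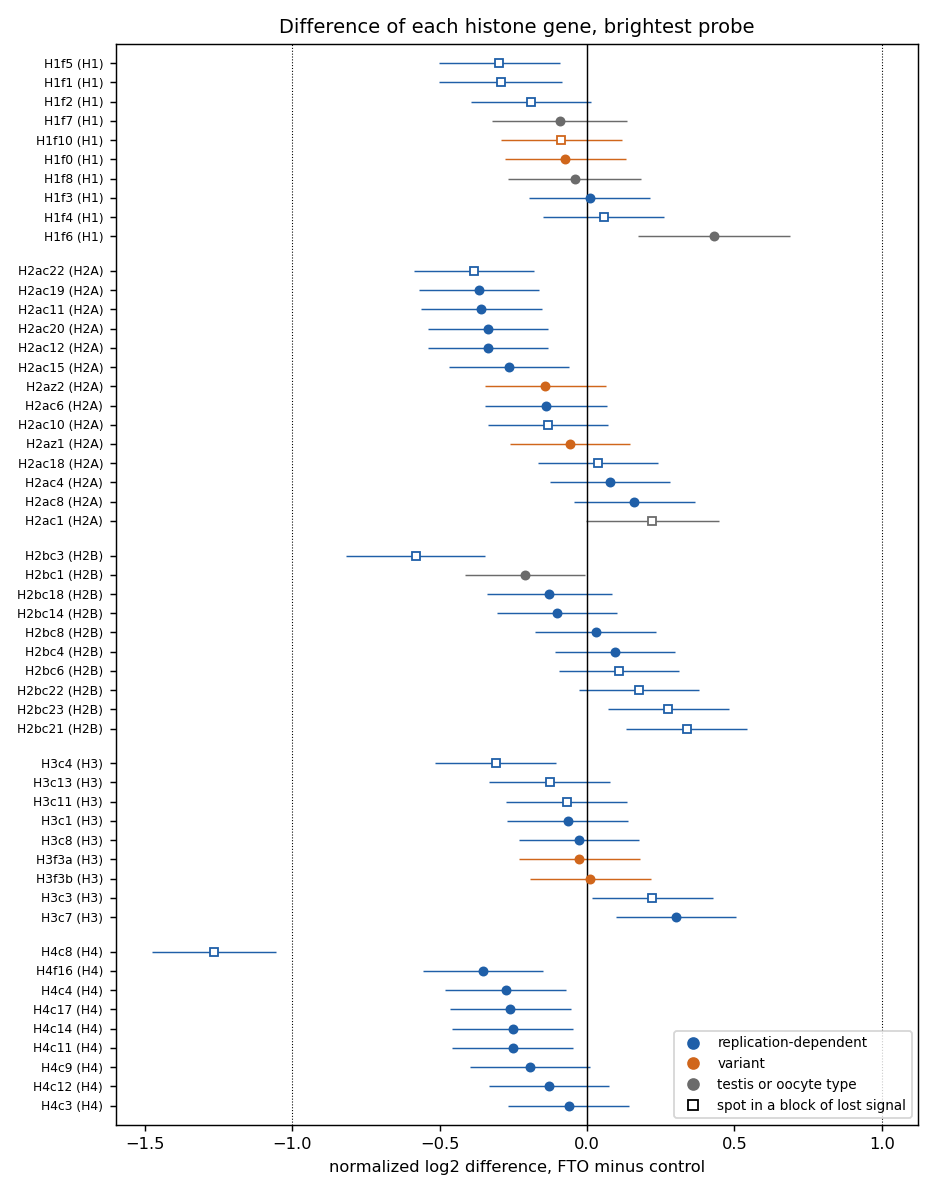
Normalized log2 difference, FTO minus control, of each of the 52 histone genes tested at its brightest probe, sorted within its family, with bars of 1 spot error and dotted lines at 2-fold. Open squares mark spots in blocks of lost signal. All 9 H4 genes and 8 of 11 replication-dependent H2A genes lie below 0, 6 of 9 replication-dependent H2B genes lie above it, and the 6 variant genes stay within -0.14 and 0.01.

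The H2A genes held the clearest group, the 7 replication-dependent genes whose mean normalized log2 signal exceeded 15, a limit set after the values had been seen. H2ac11 (formerly Hist1h2ag) had signals of 113633 on the FTO-labelled array and 119844 on the control array and a difference of -0.36 ± 0.20 (spot error). For H2ac12 (Hist1h2ah) they were 110189 and 113875, a difference of -0.34. H2ac22 (Hist1h2an) had 82527 and 85003, the lowest difference of the family at a brightest probe (-0.38), with a spot in a block of lost signal of the control array. These are members of the chromosome 13 cluster whose raw signal was lower on the FTO-labelled array, although the median named gene was 0.37 higher there before normalization.

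On chromosome 3, H2ac19 (Hist2h2aa2) gave nearly the same signal on both arrays, 70455 and 70506, and a normalized difference of -0.37. H2ac20 (Hist2h2ac) likewise gave 82633 and 82240, a difference of -0.34. Back in the chromosome 13 cluster, H2ac15 (Hist1h2ak) had -0.26 at its bright probe (95362 and 92034) and -0.57 at its second (4543 and 5041), so its probes pointed the same way. The remaining bright gene, H2ac10 (Hist1h2af), with 96546 and 85007, had -0.13, within its spot error and in a block of lost signal of the FTO-labelled array. How far the probes of these 7 genes bind the same RNA was not tested. With that limit, 6 of the 7 were lower beyond the spot error, in a signal range where 3.74% of 1577 named genes were lower and 7.17% higher.

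The other 4 H2A genes of the class did not share this. H2ac6 had signals of 190 and 176 (difference -0.14), H2ac4 427 and 323 (0.08), H2ac8 1045 and 717 (0.16) and H2ac18 9769 and 7094 (0.04). None passed its spot error, and their median was 0.06 against -0.34 for the bright 7. Brightness is the one feature by which these 11 genes were divided here. Bright genes of other families were mixed. H3c4 (Hist1h3d), which codes for an H3 of the replication-dependent kind, had 65069 and 61867 and was lower at -0.31, with its spot in a block of lost signal of the FTO-labelled array, H1f2 (Hist1h1c), a linker histone, had 51269.7 and 44063 (-0.19, within the error), and H2bc4 (Hist1h2bc) had 88599 and 64338 (0.09).

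**Figure D3:**
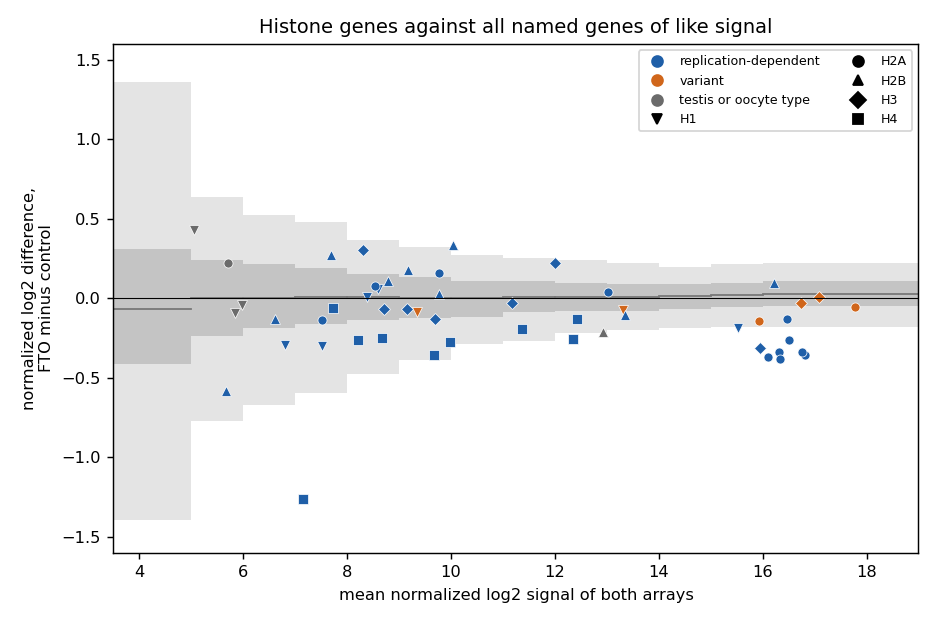
Normalized log2 difference, FTO minus control, against the mean normalized log2 signal of both arrays for each histone gene tested (color, class; shape, family). Grey bands hold the central 50% and 90% of all named genes in each range of signal. Of the 7 bright H2A genes, 6 lie below the 90% band near a signal of 16, H4 genes lie below 0 at every signal, and the bright variant genes lie within the band.

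H4 was the family that lay wholly on one side. All 9 genes were below 0, 6 of them beyond the spot error (13.9% of all named genes), with a median of -0.25. H4 genes code for an identical protein, and RefSeq lists many of them as synonyms of each other. How far their probes bind the same RNA was not tested. H4c8 (Hist1h4h) had a signal of 97.1 on the FTO-labelled array and 199.5 on the control array, a difference of -1.26 ± 0.21, or 2.40-fold lower. It stood apart from the other 8, which lay between -0.35 and -0.06. Its spot was in a block of lost signal on the FTO-labelled array, where 8.56% of probes passed 2-fold, and its difference was -0.88 with normexp background correction, under 2-fold.

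Most of the other H4 probes were brighter than that of H4c8. H4f16 (Hist4h4), the isolated gene on chromosome 6, had 817 and 807 (-0.35), and H4c4 (Hist1h4d) 1043 and 972 (-0.28). H4c14 (Hist2h4) had 5553 and 4948 (-0.25), H4c17 (Hist1h4m) 300.1 and 291 (-0.26), and H4c11 (Hist1h4j) 418 and 396 (-0.25). These 5 were lower beyond the spot error and none was in a block, although H4c17 had -0.18 and was within its error with normexp background correction. H4c12 had -0.13 at its bright probe (6100 and 4999) and -0.29 at its second (811 and 766), whereas H4c9 had -0.19 (2840 and 2466) and 0.03 (657 and 506). H4c3 was the closest to 0, with 229 and 198 (-0.06).

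H2B differed in sign from the other core families, but not in every setting. The 9 replication-dependent H2B genes had a median of 0.09, with 2 higher and 1 lower beyond the spot error (14.7% and 13.9% of all named genes), and the median was -0.04 over the 4 genes outside the blocks of lost signal. H2bc21 (Hist2h2be) had 1356 on the FTO-labelled array and 825 on the control array, 0.34 ± 0.20, the highest difference of the class. H2bc23 (Hist1h2bq) had 248 and 171 (0.28), which was within its error with normexp background correction (0.19) and 75th percentile scaling (0.11). The lowest was H2bc3 (Hist1h2bb), the dimmest gene of the class, with 42.7 and 58.8 (-0.58 ± 0.24), which was -0.21 with normexp background correction and -0.89 with 75th percentile scaling. All 3 genes with a difference beyond the error lay in blocks of lost signal, H2bc23 on the control array and the other 2 on the FTO-labelled array. The other 6 ranged from H2bc18 (99.4 and 95.6, -0.13) and H2bc14 (11759 and 9342, -0.10) to H2bc22 (693 and 483, 0.18). Between them were H2bc8 (1002 and 751, 0.03), H2bc4 and H2bc6 (517 and 377, 0.11).

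Many H2A and H2B genes lie head to head and share the sequence between them as a common promoter region. Among the genes tested, 5 pairs of an H2A and an H2B gene were under 500 bp apart in RefSeq. H2ac20 and H2bc21, 191 bp apart, differed most, with -0.34 and 0.34, a gap of 0.67 with a combined error of 0.29. H2ac22 and H2bc22, 234 bp apart, had -0.38 and 0.18, a gap of 0.56 with an error of 0.29. In both pairs the H2A probe was bright and lower, and the dimmer H2B probe was not. The H2bc21 spot lay in a block of lost signal of the FTO-labelled array. The spots of H2ac22 and H2bc22 lay in such blocks of the control array, so neither pair remains with the blocks left out. The gap stayed between 0.67 and 0.73 in the first pair and between 0.56 and 0.59 in the second under every normalization and background correction, including none. A constant shift of an array cancels in such a gap, so 75th percentile scaling and no normalization must give the same value. The deposited values and the kept outlier spots are quantile normalized too, so these ways are not separate checks. The testis pair H2ac1 and H2bc1 went the other way, with 0.22 and -0.21, a gap of -0.43 with an error of 0.30, but the gap was -0.13 with 75th percentile scaling, where H2ac1 was below 0. The H2ac1 spot lay in a block of lost signal of the FTO-labelled array. The gaps of H2ac6 with H2bc4 (0.23, and 0.35 with 75th percentile scaling, past its error of 0.29) and of H2ac8 with H2bc8 (-0.13) were within their errors.

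Genes for replication-dependent H3 were split. Of 7 genes, 2 were higher and 1, H3c4, lower beyond the spot error (14.7% and 13.9% of all named genes), with a median of -0.07. H3c7 (Hist1h3f) had 394 and 258 (0.30, and 0.18 with 75th percentile scaling, within its error), outside the blocks, and H3c3 (Hist1h3c) had 5096 and 3266 (0.22), in a block of the control array and at its error with cyclic loess (0.20). The other 4 were within their errors. H3c1 had 462 and 381 (-0.07), H3c11 had 622 and 514 (-0.07), H3c13 had 902 and 755 (-0.13) and H3c8 had 2610 and 2020 (-0.03). The 5 linker genes had a median of -0.19, and 4 of them lay in blocks of lost signal. H1f5 (Hist1h1b), with 178 and 185, had -0.30, and H1f1 (Hist1h1a), with 108 and 116, had -0.29, both lower beyond the spot error, whereas the only linker gene of the class outside the blocks, H1f3, had 0.01 (372 and 297). H1f4, in a block of the control array, had 0.06 (444 and 339). With normexp background correction H1f1 had -0.18 and no longer passed its spot error of 0.21.

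Variant genes were measured by 11 probes, all well above background on both arrays, and none passed its spot error, where 16.8% of all tested probes were higher and 15.6% lower. Of these 11 probes, 7 were bright, with a mean normalized log2 signal over 15, and among all tested probes that bright 5.31% were higher and 5.28% lower. H2az1, the gene for the main H2A.Z protein, was the brightest histone, with 227137 on the FTO-labelled array and 221449 on the control array (-0.06) and a second probe at 178993 and 161546 (-0.02). Its difference rested on the scaling, with -0.39 by the 75th percentile and -0.28 by cyclic loess at the first probe. H2az2, which codes for the second H2A.Z protein, had -0.14 (68195 and 57432) at its bright probe and 0.12 (11084 and 7565) at the other. Both H2A.Z genes were thus within the error at every probe after quantile normalization.

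The H3.3 genes code for a protein laid down outside replication by HIRA and by DAXX with ATRX. They were likewise within the error at every probe after quantile normalization. With 75th percentile scaling their brightest probes had -0.18 (H3f3b) and -0.15 (H3f3a). H3f3b had 0.01 (151415 and 128096), -0.07 (114731 and 97589) and 0.06 (4652 and 3340) at its 3 probes, and H3f3a had -0.03 (120260 and 99561) and 0.19 (126250 and 90509). The linker variants H1f0, typical of cells that divide little, and H1f10 had -0.07 (11453 and 8958) and -0.09 (711 and 592). Among the 8 histone genes with several probes tested, 4 had probes of the same sign (H2ac15, H2az1, H4c12 and H4c14) and 4 of opposite sign (H2az2, H3f3a, H3f3b and H4c9), and in none did probes of opposite sign lie more than 0.5 apart. The median of the 4 bright variant genes was -0.04 and that of the 10 bright replication-dependent genes -0.32, a difference that was not tested, and the median of all bright named genes was 0.02.

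The 5 genes known from testis or oocyte were dim apart from H2bc1. H2bc1 (Hist1h2ba), the testis H2B, had 8402 and 7230 and was lower at -0.21, just past its spot error, and within it with normexp background correction (-0.18). H1f6 (Hist1h1t), the testis linker histone, had 39.7 and 27.8, a difference of 0.43 ± 0.26, which was 0.09 with 75th percentile scaling and with normexp background correction. H2ac1 had 59.1 and 46.4 (0.22 within the error, and -0.08 with 75th percentile scaling), H1f7 58.4 and 56.3 (-0.09) and H1f8 64.8 and 60.2 (-0.04). All 5 probes passed the background limit on both arrays, as did 31939 of all 39417 probes with values on both.

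The direction of each family was taken relative to all named genes under every way of processing, since without normalization between the arrays the median named gene was 0.37 higher on the FTO-labelled array. These ways overlap, since 75th percentile scaling and no normalization differ only by a constant, and the deposited values and the kept outlier spots are quantile normalized too. The 7 bright H2A genes were each below the median of all named genes in all 7 ways of processing, as were the 5 of them outside the blocks. Their median was -0.34 after quantile normalization and 0.00 without normalization. That reference holds genes of all signals, and bright named genes were set apart after quantile normalization only. The 6 variant genes, most of them bright, were also each below it with 75th percentile scaling, with cyclic loess and without normalization. How far brightness enters these positions was not tested. The 9 H4 genes were each below the median of all named genes in the same 7 ways, as were the 8 outside the blocks. The H2B median lay above that of all genes in these 7 ways and below it without the probes in blocks, and the H1 median lay below it in 7 and 0.01 above it with the blocks left out, from 1 gene.

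**Figure D4:**
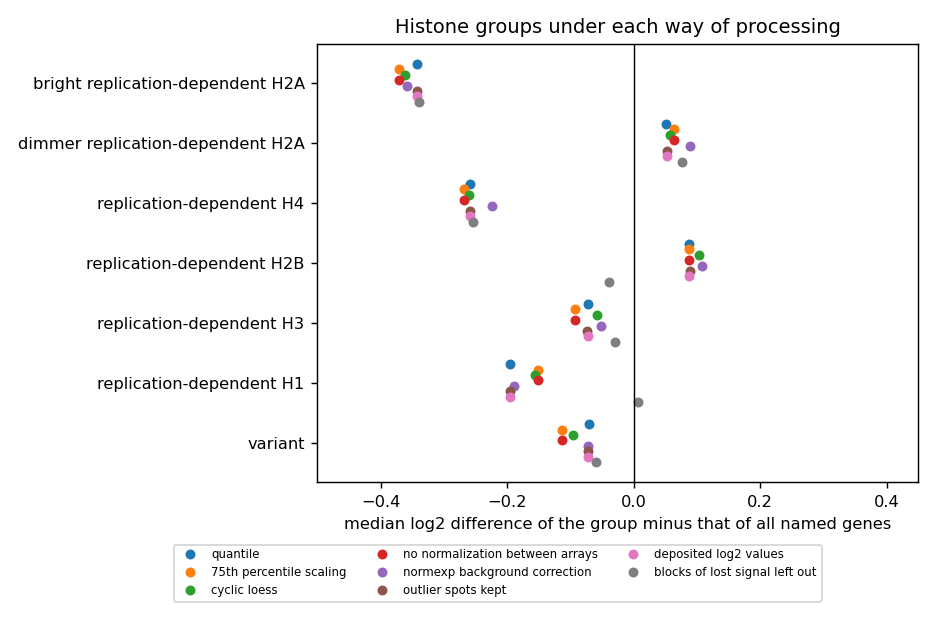
Median log2 difference, FTO minus control, of each histone group less that of all named genes, under 7 ways of processing and without the probes in blocks of lost signal. Bright H2A genes lie near -0.34 and H4 genes near -0.25 in every setting, the H2B and H1 medians cross 0 without those probes, and the variant median stays between 0 and -0.15.

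Genes that make and process histone mRNA, place histones in chromatin or accompany S phase had medians near that of all genes. Of 32 genes for histone transcription and mRNA processing, 3 were higher and 3 lower beyond the spot error (14.7% and 13.9% of all named genes), with a median of 0.01. Slbp, the protein that binds the histone stem-loop, had -0.14 (17516 and 14138) and -0.24 (15474 and 13393) at its 2 probes. Npat, the coactivator of histone transcription at the histone locus body, had 119 on the FTO-labelled array, while its spot on the control array stayed below the background limit (5.37). Measured against the lowest signal of detected probes on the control array, it was 10.5-fold higher. That signal is a reference level, so this fold is not a lower limit of the Npat difference. Its only probe lay in a block of lost signal of the FTO-labelled array, and its difference was 1.53 with normexp background correction. Ccne2, the cyclin that with Cdk2 acts on Npat, had 213 and 111 (0.72), and Tut1, a terminal uridylyltransferase, had 1784 and 1152 (0.24). Lsm11 of the U7 particle (-0.23), Cdk2 (-0.21) and Nfyc of the CCAAT-binding factor NF-Y (-0.19 at its brightest probe, within the error) were the lowest 3. The Cdk2 spot lay in a block of lost signal of the FTO-labelled array.

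Against the same shares of all named genes, 3 of 35 histone chaperones and deposition factors were higher and 3 lower beyond the spot error, and none passed 2-fold. Vps72, a histone-binding subunit of the complexes that deposit H2A.Z, had 819 and 839 (-0.41). Set had -0.32 (-0.29 and -0.25 at its other probes). Cdan1, a partner of Asf1, had -0.25 (-0.002 at its dim second probe). At their brightest probes, Atrx (0.25), Asf1a (0.21) and Npm1 (0.21) were the highest 3. Atrx had 0.06 and 0.05 at its other probes, both within their errors. The other Npm1 probes had 0.05, 0.01, 0.07 and 0.22, and only the last passed its error. Asf1a had 0.07 with 75th percentile scaling, within its error. Among 35 genes of S phase and proliferation, 4 were higher and 3 lower with a median of 0.01. Tyms, the thymidylate synthase, had 7267 on the FTO-labelled array and 8935 on the control array (-0.73), followed by Rrm2 of ribonucleotide reductase (-0.23) and the transcription factor E2f1 (-0.21). Aurkb, a mitotic kinase (0.35), and Fen1, the flap endonuclease of replication (0.29), were the highest. Aurkb was dim (183 and 124) and had 0.13 with 75th percentile scaling, within its error of 0.21. The Fen1 spot lay in a block of lost signal of the FTO-labelled array and the Rrm2 spot in one of the control array.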

How the data were processed

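Total RNA of MIN6 cells was hybridized to 1 one-color Agilent 4x44K mouse array per condition, and conditions were taken from the labels. The authors deposited the intensity of each spot from Feature Extraction 11.0.1.1, with background subtracted and not normalized between arrays, and a table of log2 values that they had quantile normalized in GeneSpring GX. The deposited spot tables also hold the error estimates and flags of that software. With 1 array per condition, precision is limited by that number.

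Control spots and outlier spots (148 and 141 on the FTO-labelled and control arrays) were left out. Spots of a probe were averaged as log2 intensity and quantile normalized in R 4.3.3 (limma 3.58.1). Tables and figures were made in Python 3.11.15 with numpy 2.4.6, pandas 2.3.3 and matplotlib 3.10.9. Tested probes were those flagged well above background on either array. Probes were named by accession through the RefSeq annotation of GRCm38.p6, which named 27224 of 39417. No histone spot was saturated or flagged as an outlier.

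Blocks of lost signal were found from 79 repeated probes over 35 blocks of the surface, as blocks where at least 15% of their spots lay more than 0.5 log2 below the probe median. This limit had been set with the calls of these arrays known. The steps were tested on simulated data.

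Named genes are all histone genes past 2-fold, the 5 highest and 5 lowest histone differences, the 6 brightest replication-dependent and the brightest variant genes, genes whose probes differ in sign by over 0.5, Npat, Slbp, Fto and, in each pathway list, members past 2-fold and the 3 highest and lowest. Some genes that this rule names are not reported here. Further histone genes were named after their values were seen. The members and lists were chosen with earlier results of these data known. Alternatives were 75th percentile scaling, cyclic loess, no normalization, normexp on the median signals (offset 50), outlier spots kept, other background filters, the deposited log2 values, the mean over probes of a gene and the blocks left out. The spot error as a limit, the limit of 15 for bright genes and the use of older symbols were chosen after seeing the data.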

Additional observations from a re-analysis of the deposited data

How the results depend on the processing

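The median of the replication-dependent genes kept its direction and moved by less than 0.1 in every alternative but 1, and was 0.21 without normalization between the arrays, where the median of all named genes was 0.37. The variant median was -0.17 with 75th percentile scaling and 0.26 without normalization. The replication-dependent median stayed below the variant median in every alternative, by 0.05 to 0.10. The count of histone probes past 2-fold, 1 as reported, was 0 with normexp background correction, where H4c8 had -0.88, and 0 once probes in blocks of lost signal were dropped, which removes its spot. Of the 20 histone genes named by rule, 2 changed sign with 75th percentile scaling, 1 with cyclic loess and 8 without normalization, and none with normexp, the deposited log2 values or outlier spots kept. By the spot error, 4 replication-dependent genes were higher and 16 lower as reported, 2 and 22 with 75th percentile scaling, 3 and 17 with cyclic loess, 4 and 13 with normexp, and 21 and 2 without normalization. Shares of all named genes were counted after quantile normalization only, so the other counts have none beside them. No paired analysis was possible because there was 1 array per condition, and no array could be left out. Depth is not defined for arrays, and probes not well above background give no level.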

Other observations

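Histone genes whose current symbols no longer begin as the rule asks, but whose older symbols did, were added after seeing the data. H2ax, whose protein is phosphorylated at DNA breaks, had signals of 45416 on the FTO-labelled array and 37346 on the control array and a difference of -0.14. H2aj had -0.22 at its bright probe (106629 and 101249), lower beyond its spot error of 0.20, and 0.12 at its second (1710 and 1203). The spots of H2ax and of both H2aj probes lay in blocks of lost signal. Of the macroH2A genes, Macroh2a1 had 0.01, 0.04 and -0.28 at its 3 probes, the last lower beyond its spot error of 0.20. Macroh2a2 had -0.05 (31206 and 24037). The replication-dependent H2aw and H2bu2 had 0.01 (10260 and 7588) and -0.22 (11079 and 9592), the latter lower beyond its spot error of 0.20. The H2aw spot lay in a block of lost signal. Of the genes classed as testis or oocyte type, H2ab1 had 35.4 and 50.5 (-0.62 ± 0.24), a lower difference than any histone gene above but H4c8, H2al2a had 0.09 (41.4 and 36.5) and Macroh2a3 had 0.02 (38279 and 27989). With these genes added, the medians were -0.13 over 43 replication-dependent genes and -0.06 over 10 variant genes.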
